A study of Mus musculus with 18 samples.

Results

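Immune checkpoint genes encode the inhibitory receptors, and their ligands, that hold immune cells back. The 7 described here were chosen by symbol from the count table: Pdcd1 (PD-1), Cd274 (PD-L1), Pdcd1lg2 (PD-L2), Lag3 (LAG-3), Havcr2 (TIM-3), Vsir (VISTA) and Sirpa (SIRP alpha). They are 7 of 57010 genes in the table, and all 7 were among the 15528 genes with enough counts to be tested. The cells came from brains of wild-type (WT) male mice in 6 groups of 3 libraries. The young vehicle and young bexarotene groups were 2 to 4 months old. The aged vehicle and aged bexarotene groups were 18 to 20 months old, as were the aged stroke vehicle and aged stroke bexarotene groups, whose mice had a middle cerebral artery occlusion (MCAo). Bexarotene is an agonist of RXR, the retinoid X receptor, and was injected into the peritoneum at 5 mg/kg, starting 24 hours after surgery and repeated each day for 2 more days. Vehicle was 3% DMSO in saline, all cells were taken on day 3, and the sources used here do not name the surgery of mice without stroke. Dissociated brain was spun on Percoll, depleted of Ly6G-positive cells and then enriched with CD11b beads, so the samples hold microglia together with other CD11b-positive cells. The labels call the samples biological replicates and name no animals for them.

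PD-1, LAG-3 and TIM-3 are best known on T cells, where they damp activation, but myeloid cells can express them too. PD-L1 and PD-L2 are the ligands of PD-1, and interferons raise PD-L1 in many cell types. VISTA and SIRP alpha are abundant on myeloid cells, and SIRP alpha restrains phagocytosis when it meets CD47 on a neighbouring cell. Several of these receptors act through tyrosine-based motifs that recruit the phosphatases encoded by Ptpn6 and Ptpn11.

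Library totals were 7582511 to 11852638 counts without stroke and 16206144 to 29359943 counts with stroke, so depth moved with stroke. Levels are given as CPM, a count relative to the library total over the tested genes times its TMM factor. The selection was visible in the transcripts: the microglial gene P2ry12 had a mean of 12804 CPM in young vehicle libraries, 10190 CPM in aged vehicle ones and 2505 CPM in aged stroke vehicle ones. Summed over 9 microglial markers, libraries held 37485 to 54733 CPM without stroke and 17109 to 21510 CPM with stroke. Summed over 8 markers of infiltrating monocytes, they held 42.8 to 198 CPM without stroke and 2426 to 4697 CPM with stroke. In such bulk samples, fewer cells of a type and less RNA per cell cannot be told apart.

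The 7 genes fell into abundant and scarce members. Per kilobase of exon, Sirpa held 46.6% to 53.3% of the members' summed CPM in the 6 groups, Vsir 22.5% to 35.5% and Havcr2 12.7% to 16.6%. Lag3 held 1.55% to 3.85% and Cd274 0.237% to 2.00%. Pdcd1 ran from 0.0245% in young bexarotene to 3.68% in aged stroke vehicle. Pdcd1lg2 was the scarcest in every group, at 0.104% or less.

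**Figure D1:**
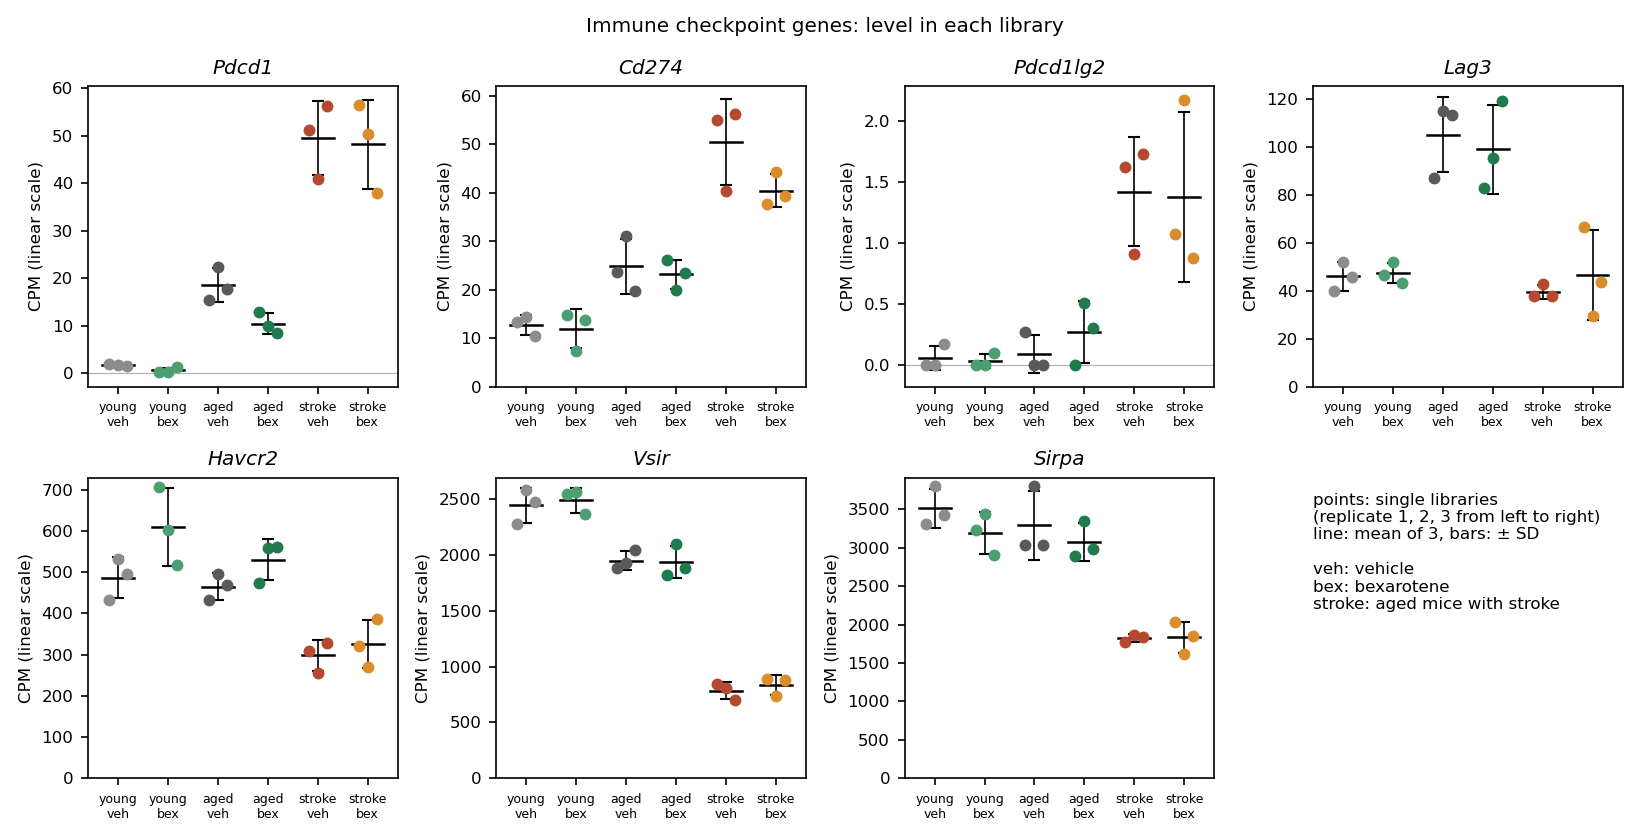
CPM (linear axis) of each of the 7 genes in each of the 18 libraries, by group, with a horizontal line at the mean of 3 and bars of ± SD. Pdcd1 and Cd274 were lowest in the young groups and highest in the aged stroke groups, Lag3 was high in the aged groups without stroke, and Havcr2, Vsir and Sirpa were lowest in the stroke groups.

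Pdcd1, the gene for the receptor PD-1, was near the limit of counting in young mice and clearly present in aged mice. The 3 young vehicle libraries held 20, 14 and 19 counts, which is 1.91, 1.89 and 1.66 CPM. The young bexarotene libraries held 4, 2 and 14 counts, which is 0.411, 0.239 and 1.33 CPM. A floor of 3 counts lies at 0.264 to 0.396 CPM in the 6 young libraries, so the second of these was below it. In aged vehicle libraries Pdcd1 stood at 15.4, 22.4 and 17.8 CPM, and in aged bexarotene libraries at 12.9, 9.94 and 8.52 CPM. After stroke it stood at 51.25, 40.9 and 56.3 CPM with vehicle and at 56.4, 50.3 and 38.0 CPM with bexarotene. Every aged library was above every young library, and every stroke library was above every aged library without stroke. The order of group means was aged stroke vehicle (49.5 CPM), aged stroke bexarotene (48.2 CPM), aged vehicle (18.5 CPM), aged bexarotene (10.4 CPM), young vehicle (1.82 CPM) and young bexarotene (0.661 CPM). Of these neighbours, only the pair of stroke groups overlapped.

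Cd274, the gene for the ligand PD-L1, followed the same order at a smaller scale. Young vehicle libraries held 13.4, 14.3 and 10.4 CPM and young bexarotene libraries 14.9, 7.40 and 13.7 CPM. Aged vehicle libraries held 23.7, 31.0 and 19.7 CPM and aged bexarotene libraries 26.0, 20.0 and 23.4 CPM. Stroke libraries held 54.9, 40.3 and 56.3 CPM with vehicle and 37.6, 44.2 and 39.2 CPM with bexarotene. Within each pair of vehicle and bexarotene groups the libraries overlapped, whereas the young, aged and stroke pairs did not overlap each other.

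Pdcd1lg2, the gene for the second PD-1 ligand PD-L2, was almost absent without stroke. Its counts were 0, 0 and 2 in young vehicle, 0, 0 and 1 in young bexarotene, 3, 0 and 0 in aged vehicle, and 0, 6 and 3 in aged bexarotene libraries. With stroke they were 33, 15 and 33 with vehicle and 31, 33 and 19 with bexarotene. The 6 stroke libraries were above all 12 others, also on the CPM scale, where they ran from 0.881 to 2.18 against 0.510 at most. The sources used here name no molecular identifiers, so such small counts are not independent molecules and intervals from them cover counting error only.

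The promoters of Pdcd1 and Cd274 are shown because these were the 2 members that were higher both with age and with stroke, and because motifs of RXR partners and of interferon factors were searched in them. Sequences are from RefSeq (build GRCm38.p6), the 250 bases before the annotated start on the gene's own strand. Pdcd1 lies at chr1:94052554-94052803 (minus strand) and Cd274 at chr19:29367188-29367437 (plus strand). Capitals mark the nuclear receptor half-site AGGTCA, read on the opposite strand, in Pdcd1 (first base 41 bases before the start) and the interferon regulatory factor core GAAANNGAA, read on the opposite strand, in Cd274 (first base 76 bases before the start).
Pdcd1: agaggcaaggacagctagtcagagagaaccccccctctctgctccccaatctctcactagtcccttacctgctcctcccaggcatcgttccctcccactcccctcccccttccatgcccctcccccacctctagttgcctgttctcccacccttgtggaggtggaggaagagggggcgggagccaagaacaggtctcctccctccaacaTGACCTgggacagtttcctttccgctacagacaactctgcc
Cd274: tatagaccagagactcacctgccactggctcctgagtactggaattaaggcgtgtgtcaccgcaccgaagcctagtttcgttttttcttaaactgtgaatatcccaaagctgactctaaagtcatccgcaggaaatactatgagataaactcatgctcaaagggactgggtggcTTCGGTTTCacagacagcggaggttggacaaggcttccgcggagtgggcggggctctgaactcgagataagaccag
Both strands of 5 members with an entry (Pdcd1, Pdcd1lg2, Cd274, Havcr2 and Vsir) were searched for 4 motifs, which do not overlap each other in these matches. The half-site AGGTCA was also present in Havcr2, 84 bases before the start, together with the AP-1 motif TGANTCA, 200 bases before it. The interferon gamma activated sequence TTCNNNGAA was in none of the 5 windows, and Pdcd1lg2 and Vsir held none of the 4 motifs. Of 32851 promoters of the same length, 14% held AGGTCA, 7.13% GAAANNGAA, 7.02% TTCNNNGAA and 6.75% TGANTCA, so such matches are frequent.

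Lag3, the gene for an inhibitory receptor that binds MHC class II, was highest in aged mice without stroke. Young vehicle libraries held 40.1, 52.1 and 46.0 CPM and young bexarotene libraries 46.8, 52.0 and 43.5 CPM. Aged vehicle libraries held 87.0, 115 and 113 CPM and aged bexarotene libraries 82.8, 95.4 and 119 CPM. Stroke libraries held 37.8, 43.0 and 38.1 CPM with vehicle and 66.6, 29.7 and 43.7 CPM with bexarotene. All 6 aged libraries without stroke were above the 12 others, and the 4 other groups overlapped with their neighbours in the order. The aged stroke bexarotene library with 66.6 CPM also had the highest sum over 10 T cell markers, 20.9 CPM against 0.477 to 9.39 CPM in the 17 others, and the part of those cells in its Lag3 level was not tested.

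Havcr2, the gene for TIM-3, a receptor of galectin-9 and phosphatidylserine, was lower in every stroke library than in any other. Young libraries held 433, 531 and 495 CPM with vehicle and 707, 602 and 518 CPM with bexarotene. Aged libraries without stroke held 431, 496 and 468 CPM with vehicle and 473, 558 and 560 CPM with bexarotene. Stroke libraries held 309, 256 and 329 CPM with vehicle and 321, 269 and 386 CPM with bexarotene. The 4 groups without stroke overlapped with their neighbours in the order of means, as did the 2 stroke groups.

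Vsir, the gene for VISTA, was highest in the young groups, intermediate in the aged groups and lowest in the stroke groups. Young libraries held 2274, 2578 and 2474 CPM with vehicle and 2541, 2559 and 2361 CPM with bexarotene. Aged libraries held 1882, 1924 and 2039 CPM with vehicle and 1822, 2093 and 1878 CPM with bexarotene, all below the young libraries. Stroke libraries held 845, 809 and 701 CPM with vehicle and 890, 734 and 878 CPM with bexarotene, all below the aged libraries without stroke.

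Sirpa, the gene for the CD47 receptor, was the most abundant member. Young libraries held 3305, 3801 and 3425 CPM with vehicle and 3228, 3441 and 2904 CPM with bexarotene. Aged libraries without stroke held 3035, 3803 and 3031 CPM with vehicle and 2891, 3349 and 2982 CPM with bexarotene. Stroke libraries held 1772, 1869 and 1833 CPM with vehicle and 2029, 1622 and 1846 CPM with bexarotene. The 4 groups without stroke overlapped with their neighbours, and all 6 stroke libraries were below them.

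The comparison of aged with young vehicle mice asks which of these genes differ with age. Pdcd1, Lag3 and Cd274 were higher in aged mice, and no member was called lower. Pdcd1 rose by a log2 fold change of 3.35 ± 0.29 (SE, n = 3 per group; 10.2-fold; adjusted p = 1.97e-06, edgeR quasi-likelihood test with Benjamini-Hochberg adjustment over all 15528 genes, as for all adjusted p-values here unless another source is named). Lag3 rose by 1.19 ± 0.22 (edgeR adjusted p = 0.00534) and Cd274 by 0.98 ± 0.22 (edgeR adjusted p = 0.0284). With 3 of 7 members called, all higher, the background was 1.7% of all tested genes called, 1.26% higher and 0.438% lower. Libraries of the groups did not overlap for 4 of 7 members (Pdcd1, Cd274, Lag3 and Vsir), against 18.4% of all genes.

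None of the abundant receptors was called with age by edgeR, and only the 95% interval of Vsir excluded 0. Vsir had a log2 fold change of -0.33 ± 0.10 (95% interval -0.53 to -0.12, edgeR adjusted p = 0.107), Havcr2 of -0.07 ± 0.14 (-0.36 to 0.22) and Sirpa of -0.09 ± 0.11 (-0.32 to 0.14). The median over the 7 members was 0.44, and over all genes -0.01. In the authors' deposited table for the same comparison, which lists 451 genes, Pdcd1 had a log2 fold change of 3.26 ± 0.34 (adjusted p = 3.45e-21). The authors' deposited table also lists Lag3 with 1.17 ± 0.15 (adjusted p = 6.51e-12), Cd274 with 0.77 ± 0.35 (adjusted p = 0.00301) and Vsir with -0.25 ± 0.08 (adjusted p = 0.0143). The Cd274 call is the weakest of the 3. It was lost with limma voom (adjusted p = 0.0761), without the 6 libraries numbered 1 (adjusted p = 0.228), and when any of 5 of the 6 libraries was left out, all but aged vehicle replicate 3 (adjusted p = 0.0503 to 0.167). The Lag3 call was lost without young vehicle replicate 1 (adjusted p = 0.0515), which left Pdcd1 as the only called member.

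Markers of cell types were measured in the same young and aged vehicle libraries. Microglial markers, summed over 9 genes, did not overlap. They held 44712 to 54733 CPM in young vehicle and 39987 to 43830 CPM in aged vehicle libraries. Of these 9 genes 0 were called (median log2 fold change -0.22). The sum over 10 T cell markers was 0.477 to 1.66 CPM in young vehicle and 1.54 to 3.62 CPM in aged vehicle libraries. Of these T cell markers, 4 (Cd3d, Cd3g, Cd8a and Cd8b1) had 0 counts in all 3 young vehicle libraries. In aged vehicle libraries 2 (Cd3d and Cd3e) had 0 counts in all 3. The sum over 7 NK cell markers was 7.35 to 14.7 CPM in young vehicle and 2.90 to 7.68 CPM in aged vehicle libraries. Monocyte markers summed to 81.6 to 170 CPM in young vehicle and to 60.2 to 100 CPM in aged vehicle libraries. Markers of border-associated macrophages, summed over 8 genes, did not overlap, with 867 to 1103 CPM in young vehicle and 526 to 680 CPM in aged vehicle libraries, and 3 of the 8 were called lower (median log2 fold change -0.81). The part of these cells in the values of Pdcd1, Lag3, Cd274 and Vsir with age was not tested.

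**Figure D2:**
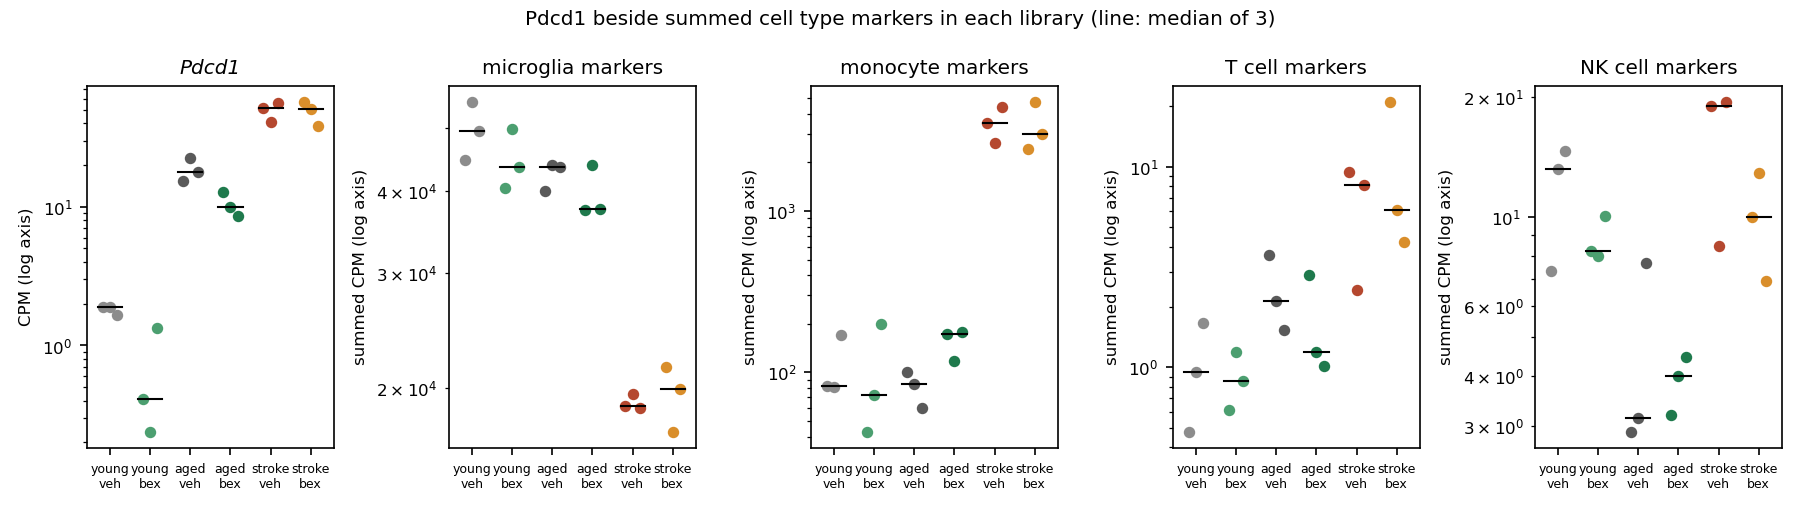
Pdcd1 (CPM) and summed CPM of microglia, infiltrating monocyte, T cell and NK cell markers in each of the 18 libraries, on log axes, with a line at the median of 3. Pdcd1 was higher in aged than in young vehicle libraries, where monocyte markers overlapped. NK cell markers summed to 2.90 to 7.68 CPM in aged vehicle and 7.35 to 14.7 CPM in young vehicle libraries. In stroke libraries Pdcd1 and monocyte markers were above all other libraries. T cell markers overlapped, with 2.44 to 20.9 CPM in stroke and 0.477 to 3.62 CPM in the other libraries.

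The comparison of aged stroke vehicle with aged vehicle mice asks what differs after stroke, and all 7 members were called. The receptor PD-1 and both its ligands were higher, and the other 4 receptors were lower. Pdcd1 rose by a log2 fold change of 1.42 ± 0.22 (n = 3 per group, edgeR adjusted p = 3.73e-05) and Cd274 by 1.03 ± 0.21 (edgeR adjusted p = 5.04e-04). Pdcd1lg2 rose from 3 to 81 counts summed over 3 libraries, a ratio of 14.8 after scaling by total counts (exact 95% counting interval 4.87 to 73.0, edgeR adjusted p = 0.00581). All 3 of its aged vehicle counts came from replicate 1, so without that library the ratio has no value. The stroke comparison called 48.3% of all genes, 27.2% higher and 21.1% lower, and in 56.1% the groups did not overlap, so a called gene is common in this comparison.

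Among the receptors that fell, Lag3 had a log2 fold change of -1.41 ± 0.22 (edgeR adjusted p = 3.84e-05) and Vsir of -1.31 ± 0.10 (edgeR adjusted p = 1.15e-08). Sirpa had -0.85 ± 0.11 (edgeR adjusted p = 4.68e-06) and Havcr2 -0.64 ± 0.14 (edgeR adjusted p = 8.73e-04). The median over the 7 members was -0.64, against 0.02 over all genes. The microglial markers fell as well, 7 of 9 called lower with a median of -1.40. All 8 monocyte markers were called higher, with a median of 5.95. T cell markers summed to 2.44 to 9.39 CPM and NK cell markers to 8.47 to 19.4 CPM in aged stroke vehicle libraries, and of the 3 T cell markers with enough counts Cd2 was called higher. Dendritic cell markers were called higher in 4 of 6 tested (median 3.19). Their sums overlapped, with 58.1 to 87.0 CPM in aged vehicle and 38.6 to 88.0 CPM in aged stroke vehicle libraries. Border-associated macrophage markers were called higher in 3 of 8, with sums of 526 to 680 CPM in aged vehicle and 1085 to 1147 CPM in aged stroke vehicle libraries. Neutrophil markers were called higher in 3 of 8, with sums of 193 to 396 CPM and 535 to 1657 CPM. The part of these cell type differences in the changes of the members was not tested.

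Under bexarotene the same contrast, aged stroke bexarotene against aged bexarotene, called all 7 members again in the same directions. Pdcd1 rose by 2.21 ± 0.23 (edgeR adjusted p = 4.15e-07) and Cd274 by 0.80 ± 0.21 (edgeR adjusted p = 0.00397). Pdcd1lg2 went from 9 to 83 summed counts, a ratio of 4.18 (exact 95% counting interval 2.10 to 9.46), with an edgeR adjusted p of 0.0473. Without aged bexarotene replicate 2, which held 6 of the 9 counts, its fitted log2 fold change was 3.08 in place of 2.25. The call was lost in 8 of 14 alternative fits, among them DESeq2 (adjusted p = 0.0503), a fit with the choroid plexus markers as a covariate (edgeR adjusted p = 0.0955), and fits without aged bexarotene replicate 1 (0.163) or 3 (0.109) or any of the 3 aged stroke bexarotene libraries (0.0521 to 0.173). Vsir fell by 1.21 ± 0.10 on the log2 scale, Lag3 fell by 1.08 ± 0.21, Sirpa fell by 0.75 ± 0.11 and Havcr2 fell by 0.71 ± 0.14, each with an edgeR adjusted p of 4.47e-04 or less. Here 48% of all genes were called, 26.8% higher and 21.2% lower, and 56.3% did not overlap. The monocyte markers had a median log2 fold change of 4.74 in this contrast, with 8 of 8 called higher, and the microglial markers of -1.22, with 7 of 9 called lower. Dendritic cell markers were called higher in 4 of 6 tested, and border-associated macrophage markers higher in 3 and lower in 4 of 8. The dendritic cell sums overlapped, with 40.5 to 69.4 CPM in aged bexarotene and 34.5 to 90.1 CPM in aged stroke bexarotene libraries. The part of these cells was not tested here either.

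**Figure D3:**
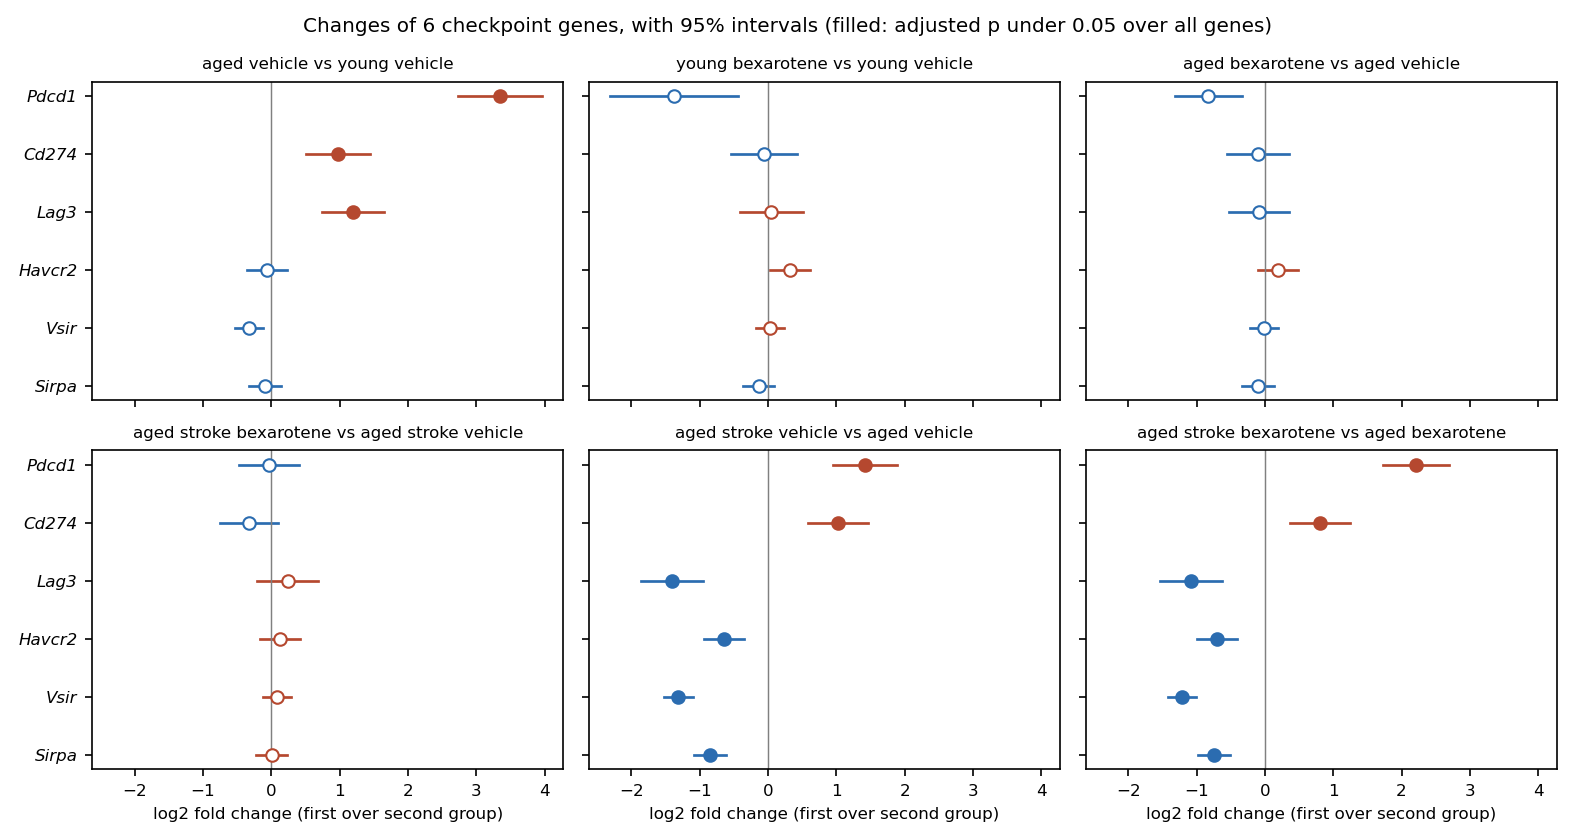
Log2 fold changes (first over second group) of 6 members in the 6 comparisons of pairs of groups, with 95% intervals; filled points passed an adjusted p of 0.05 over all genes. Pdcd1lg2 is left out because its counts were too low for a fold in most comparisons. Pdcd1, Cd274 and Lag3 were higher with age, all 6 genes passed in both stroke comparisons, and none passed in a bexarotene comparison.

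The comparisons of bexarotene with vehicle ask whether RXR activation moves these genes, and no member was called in any of the 3 settings by the edgeR test. In aged mice without stroke, Pdcd1 had a log2 fold change of -0.83 ± 0.23 (95% interval -1.32 to -0.34, unadjusted p = 0.00231 and adjusted p = 0.297 by edgeR over all genes). The aged bexarotene libraries, 8.52 to 12.9 CPM, all lay below the aged vehicle libraries, 15.4 to 22.4 CPM. Among all genes 0.258% were called in that comparison and 11.8% did not overlap, and Pdcd1 was the only member of 7 without overlap and the only member with an unadjusted p under 0.05. Summed markers of other cells in the same aged libraries were 60.2 to 100 CPM with vehicle and 118 to 177 CPM with bexarotene for monocytes, 193 to 396 CPM and 579 to 1412 CPM for 8 neutrophil markers, and 1.54 to 3.62 CPM and 1.01 to 2.88 CPM for T cells, and their part was not tested. Called alternatives for Pdcd1 were DESeq2 (adjusted p = 0.0485) and edgeR with no filter on low counts (adjusted p = 0.00136). The authors' deposited table for this comparison lists 149 genes and 0 members. Their tables for bexarotene in young mice (197 genes) and after stroke (96 genes) also list 0 members. The other 4 tested receptors and Cd274 had log2 fold changes of -0.10 to 0.19.

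In young mice Pdcd1 had a log2 fold change of -1.37 ± 0.45 (95% interval -2.31 to -0.43, unadjusted p = 0.00657 and adjusted p = 0.285 by edgeR), which rests on 20 against 53 summed counts. Without young bexarotene replicate 3, the library with 14 counts, it was -2.42 ± 0.51 (edgeR adjusted p = 0.0579), and with no filter on low counts it was called (edgeR adjusted p = 0.01). Havcr2 had 0.32 ± 0.14 (0.03 to 0.61, unadjusted p = 0.0306 and adjusted p = 0.509 by edgeR), with overlapping groups. The remaining members with a fold had values of -0.14 to 0.05. The background was 0.509% of genes called and 13.1% without overlap, and 1 of 7 members, Pdcd1, did not overlap.

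After stroke the bexarotene and vehicle libraries overlapped for all 7 members, and 0 had an unadjusted p under 0.05 by edgeR or a call by any tool run, against 11.3% of genes without overlap and 0.058% called. Pdcd1 had a log2 fold change of -0.04 ± 0.21 (95% interval -0.48 to 0.40) and Cd274 of -0.33 ± 0.20 (-0.75 to 0.10, edgeR adjusted p = 0.901). Lag3 had 0.24 ± 0.21 (-0.20 to 0.69), Havcr2 0.13 ± 0.14 (-0.16 to 0.42), Vsir 0.09 ± 0.10 (-0.12 to 0.29) and Sirpa 0.01 ± 0.11 (-0.22 to 0.23). The intervals of these 6 genes were narrowest for Vsir and Sirpa. Pdcd1lg2, with 81 against 83 summed counts, had an interval of -1.66 to 1.53. Border-associated macrophage markers summed to 1085 to 1147 CPM with vehicle and 708 to 1007 CPM with bexarotene. Choroid plexus markers summed to 651 to 2212 CPM and 97.7 to 522 CPM, and neither pair overlapped. In both lists 0 of 8 genes were called. Sums of microglial, monocyte and T cell markers overlapped between these groups, and the part of these cells was not tested.

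The bexarotene effect itself was compared between settings. For Pdcd1 the effect with stroke minus that without stroke in aged mice was 0.79 ± 0.31 (95% interval 0.13 to 1.45, unadjusted p = 0.0214 and adjusted p = 1 by edgeR). The effect in aged minus that in young mice was 0.54 ± 0.51 (-0.52 to 1.61). With edgeR, 0% of all genes were called for the difference between aged and young mice, with 456 genes at an unadjusted p under 0.05, and DESeq2 called 5. For the difference between stroke and no stroke 0% were called as well, with 638 genes at an unadjusted p under 0.05, and DESeq2 called 9. No member was called in either by any tool run.

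The ligands and binding partners of the members were counted by the same test. Of 12 tested genes of that list, edgeR called 0 with age, and 6 had an unadjusted p under 0.05. Of all 15528 genes 1.7% were called with age, and 2034 genes had such a p. With bexarotene 0 of the 12 were called in young, aged or stroke mice, and 2, 0 and 0 had such a p. Of all genes 0.509%, 0.258% and 0.058% were called there, and 1300, 1012 and 988 genes had such a p. With stroke under vehicle 7 of the 12 were called, 4 higher and 3 lower (median log2 fold change 0.58 against 0.02 over all genes). The count of 7 is near the 48.3% of all genes called in that comparison. Thrombospondin-1 (Thbs1), a matrix protein that binds CD47, rose by 6.83 ± 0.56, from 20.8 to 2380 CPM. Galectin-9 (Lgals9), a ligand of TIM-3, rose by 0.93 ± 0.10, from 293 to 558 CPM. Selplg, which encodes the VISTA partner PSGL-1, fell by 1.53 ± 0.13 on the log2 scale, from 5347 to 1856 CPM, and Cd80, a costimulatory ligand that also binds PD-L1, fell by 1.33 ± 0.14, from 42.3 to 16.8 CPM. Cd47, named after its values were seen because it is the ligand of SIRP alpha, rose by 0.48 ± 0.10 under vehicle (edgeR adjusted p = 4.57e-04). Under bexarotene its log2 fold change was 0.13 ± 0.10 (edgeR adjusted p = 0.273). Its means were 269 CPM in aged vehicle, 375 CPM in aged stroke vehicle, 309 CPM in aged bexarotene and 339 CPM in aged stroke bexarotene mice. The difference between the 2 stroke effects was called for 0 of the 12 genes, Cd47 included.

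Among other B7 and CD28 family genes, 4 of 8 tested were called with stroke under vehicle, 1 higher and 3 lower, near the 48.3% of all genes. Cd86 fell by 0.87 ± 0.12 and Icosl by 0.61 ± 0.11 on the log2 scale, both ligands that costimulate T cells, and Cd80 was the third. Btla, an inhibitory receptor, stood at 7.41 CPM after stroke and at 0.162 CPM in aged vehicle mice. Of other inhibitory receptors and their ligands, 12 of 16 tested were called, 9 higher and 3 lower, with the same 48.3% of all genes called (27.2% higher and 21.1% lower). Cd244a rose by 4.85 ± 0.27, and the paired immunoglobulin-like receptors Pirb and Pilra by 2.41 ± 0.19 and 2.47 ± 0.21. Entpd1 (CD39), which breaks down extracellular ATP, fell by 1.83 ± 0.12 on the log2 scale, from 1241 to 348 CPM. Ctla4, Tigit, Cd96, Cd160 and Klrg1 had too few counts to be tested.

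The relatives of Sirpa moved against it after stroke. Sirpa encodes the inhibitory receptor of its family, whereas Sirpb1a, Sirpb1b and Sirpb1c encode activating relatives that lack its inhibitory motifs. Under vehicle, Sirpb1c rose from 2.54 to 176 CPM, Sirpb1b from 3.16 to 111 CPM and Sirpb1a from 2.14 to 71.0 CPM, with log2 fold changes of 6.10 ± 0.53, 5.14 ± 0.51 and 5.06 ± 0.47. These 3 genes are close copies of each other, so reads could be split between them, and their values are uncertain singly. They were the 3 called of 4 tested genes in that list, where 48.3% of all genes were called, 27.2% higher and 21.1% lower. With bexarotene in aged mice without stroke, edgeR called 0 of the 4, with 3 (Sirpb1b, Sirpb1c and Timd4, named after their values were seen) at an unadjusted p under 0.05. Of all 15528 genes 0.258% were called in that comparison, and 1012 genes had an unadjusted p under 0.05 by edgeR. Monocyte markers moved with them, from 60.2 to 100 CPM in aged vehicle to 2626 to 4411 CPM in aged stroke vehicle libraries, and their part was not tested.

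Below the receptors, 7 of 15 tested signalling genes were called with stroke under vehicle, 5 higher and 2 lower, near the 48.3% of all genes. The phosphatase gene Inpp5d (SHIP1) fell by 0.64 ± 0.09 and the adaptor Dok1 by 0.83 ± 0.11 on the log2 scale, while the adaptor Dok2 rose by 2.78 ± 0.33 and the kinase Fyn by 1.59 ± 0.24. Of 18 tested genes of interferon signalling and PD-L1 control, 12 were called, 9 higher and 3 lower, against the same 48.3%. Stat2, which carries type I interferon signals to the nucleus, rose by 1.76 ± 0.11, and the feedback inhibitor Socs3 by 2.96 ± 0.21. Cmtm6, which keeps PD-L1 on the cell surface, fell by 1.36 ± 0.11 on the log2 scale, from 2130 to 831 CPM, in the samples in which Cd274 rose. Under bexarotene the stroke contrast called 6 of 12, 3 of 8, 14 of 16, 8 of 15, 12 of 18 and 4 of 4 genes of the ligand, B7 and CD28, other inhibitory, signalling, interferon, and SIRP and TIM lists, where 48% of all genes were called.

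**Figure D4:**
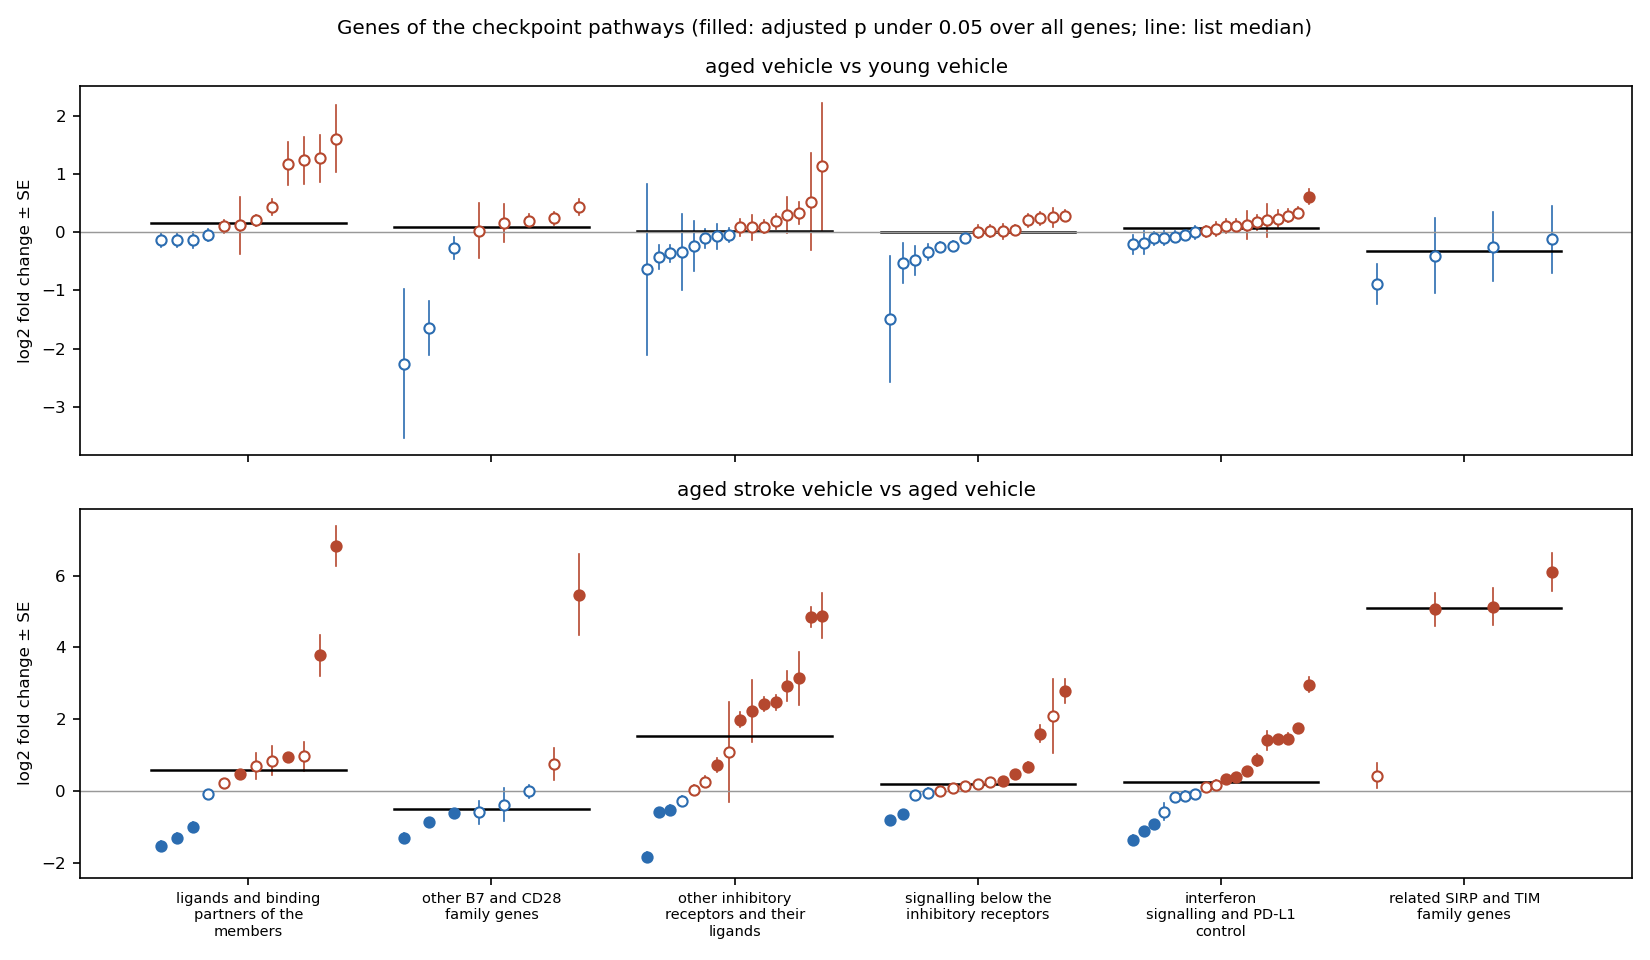
Log2 fold changes ± SE of the tested genes of 6 checkpoint pathway lists, for aged against young vehicle (top) and aged stroke vehicle against aged vehicle (bottom); filled points passed an adjusted p of 0.05 over all genes, and lines are list medians. Of the 73 points in each panel, 45 are filled at the bottom, and the log2 fold changes there span a wider range than at the top.

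For each member, the genes with the most similar pattern were taken as those with the smallest root mean square difference of the 6 group means of log2 CPM, after centring each gene, among 9256 genes with a mean of at least 10 CPM. For Pdcd1 these were Cst7 (0.485), Hcar2 (0.629) and Chst2 (0.743). Cst7, which encodes the cathepsin inhibitor cystatin F, had means of 5.39 CPM in young vehicle mice, 47.6 CPM in aged vehicle mice and 140 CPM after stroke with vehicle. Hcar2, a receptor of ketone bodies and niacin, had means of 20.0 CPM with vehicle and 8.63 CPM with bexarotene in aged mice, and Chst2, a sulfotransferase, 23.0 and 9.42 CPM. These falls are part of the pattern by which the 2 genes were picked. After stroke Hcar2 had 107 CPM with vehicle and 59.3 CPM with bexarotene, and Chst2 33.9 and 25.4 CPM. Pdcd1 had 49.5 and 48.2 CPM there. For Cd274 they were AW112010 (0.0654), Lsp1 (0.105) and H2-Ab1 (0.156), a chain of MHC class II with means of 113 CPM in young vehicle mice, 265 CPM in aged vehicle mice and 518 CPM after stroke with vehicle.

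For Lag3 the most similar patterns were those of the protease Klk8 (0.145), the collagen chain Col6a3 (0.158) and the receptor Lilra5 (0.168). Klk8 had means of 31.7 CPM in young vehicle mice, 58.7 CPM in aged vehicle mice and 23.2 CPM after stroke with vehicle. For Pdcd1lg2 they were Mgst1 (0.111), Pqlc3 (0.147) and E2f2 (0.156), for Havcr2 Dcaf17 (0.0122), Akap8 (0.0296) and Dennd1c (0.0354), for Vsir Zfp157 (0.0518), Inpp4b (0.0557) and Usp11 (0.0684), and for Sirpa Pheta1 (0.0232), Fam91a1 (0.0248) and Mtus1 (0.0292). With 6 points per gene these are descriptions. Pdcd1lg2 held 0 to 6 counts in libraries without stroke, so its log2 means there depend on the prior count of 2 added before the log. Small differences are easily reached by genes that change little, so the values of Havcr2 and Sirpa cannot be set against that of Pdcd1.

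Gene structure limits some of these counts. Cd274 and Pdcd1lg2 are neighbours on chromosome 19, and their levels differed widely, with 50.5 and 1.42 CPM in aged stroke vehicle mice. Of the 50-base stretches in the exons of Cd274, 12.4% also occur elsewhere, mostly in the antisense gene AC119228.1, which had a mean of at most 0.508 CPM. Pdcd1lg2 overlaps the antisense gene A930007I19Rik, at 4.79 to 10.4 CPM on average, and Vsir overlaps Cdh23 on the other strand, at 31.4 to 85.0 CPM. The sources used here do not say whether counting used strand. Pdcd1, Pdcd1lg2, Vsir and Sirpa share 0% of such stretches with other genes, Lag3 0.874% and Havcr2 0.516%. The gene next to Lag3 on chromosome 6, Cd4, had means of 9.17 CPM in young vehicle mice, 4.73 CPM in aged vehicle mice and 2.80 CPM after stroke with vehicle, an order that differs from that of Lag3.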

How the data were processed

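The authors deposited 1 table of whole-number counts per Ensembl gene for 18 libraries, with no normalization. Per the submitters' processing notes the tools were STAR 2.7.10a, Trimmomatic 0.40, R 4.4.2 and GATK, with GRCm39 as the build. Their roles, the annotation and the use of strand are not stated. In 4 further tables the authors deposited, per gene, a mean normalized signal, a log2 fold change with an error, and raw and adjusted p-values from their comparisons.

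Counts were tested with edgeR 4.0.16 (R 4.3.3, limma 3.58.1): filterByExpr, TMM, and 1 robust quasi-likelihood model with a mean per group over the 18 libraries (residual degrees of freedom 12, common dispersion with a square root of 0.195), with Benjamini-Hochberg adjustment over 15528 genes and a threshold of 0.05. Symbols for 52029 genes came from an annotation of an earlier build, used for names, exon length and neighbours. Genes without a symbol held 0.339% of counts. No libraries of a group agreed within sampling noise (chi-square per degree of freedom 6.19 to 40.3). p-values measure the spread between these samples.

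The named genes were all members, up to 4 called genes of lowest p per pathway list and comparison, and the 3 genes of most similar pattern per member. Members and lists were chosen with earlier results of these data known. Replicate numbers paired the samples by the data in 1 comparison, young bexarotene against young vehicle (correlations of same-numbered deviations 0.14 to 0.276). The p-values given for it come from the fit without this pairing. Choroid plexus markers in replicates 1, 2 and 3 summed to 1515, 250 and 469 CPM in young vehicle and 1247, 153 and 370 CPM in young bexarotene libraries. In aged stroke bexarotene libraries they summed to 435, 97.7 and 522 CPM. Alternatives were RLE scaling, no filter, DESeq2 1.42.0, limma voom, fits to the compared groups alone, a replicate block, a choroid plexus covariate and left-out libraries. The values of 1 gene of the pathway lists are not reported here.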

Additional observations from a re-analysis of the deposited data

How the results depend on the processing

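All 7 members were called in the stroke comparison under vehicle in all 14 alternative fits, and 6 or 7 under bexarotene. With age 3 were called, 1 to 3 when a library was left out, with 1 left (Pdcd1) without young vehicle replicate 1. With bexarotene 0 were called in all 3 settings, except 1 (Pdcd1) with no low-count filter in young and in aged mice, and 1 (Pdcd1) with DESeq2 in aged mice. The cause was not tested. Changes of sign occurred where no call was made: Vsir in young mice with bexarotene had -0.0004984 with no filter, and Sirpa after stroke with bexarotene -0.007145 in a fit to those groups alone and -0.06885 with the choroid plexus covariate. With libraries left out, log2 fold changes with bexarotene ran in young mice from -0.2418 to 0.1698 (Cd274), -0.05658 to 0.1386 (Lag3) and -0.04271 to 0.06612 (Vsir). In aged mice they ran from -0.2429 to 0.09403 (Cd274), -0.2379 to 0.0306 (Lag3), -0.07753 to 0.02862 (Vsir) and -0.1674 to 0.02112 (Sirpa). After stroke they ran from -0.1538 to 0.1178 (Pdcd1), -0.1178 to 0.4797 (Lag3), -0.006417 to 0.2456 (Havcr2) and -0.07287 to 0.0864 (Sirpa). Havcr2 with age ran from -0.1448 to 0.001708, and the difference of the Pdcd1 effect of bexarotene between aged and young mice from -0.0611 to 1.592.

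The replicate block changed no call of a member. It moved the count of all genes called with bexarotene after stroke from 9 to 20. Deviations from the group mean were also correlated with those of libraries in other groups. For 14 of the 18 libraries the mean correlation was highest with the libraries of their own number. Counts of all genes called for age, and for bexarotene in young, aged and stroke mice, were 264, 79, 40 and 9. With no filter they were 677, 457, 339 and 419, with DESeq2 522, 209, 91 and 59, and with limma voom 154, 54, 18 and 28. RLE scaling gave 24 in aged mice, and fits to the groups alone 36 in young and 5 in stroke mice. With no filter the differences of the bexarotene effect called 138 and 256 genes. With libraries left out the counts ran from 107 to 255, 17 to 70, 9 to 35 and 1 to 17. The mean Sirpa level in aged stroke vehicle libraries was 1774 CPM by plain library totals. By a median absolute difference 1 of 3 most similar genes was kept for Pdcd1 and Lag3, and 0 for Vsir. In young libraries a floor of 3 counts, 0.264 to 0.396 CPM, limits Pdcd1 and Pdcd1lg2.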
